A study of Rattus norvegicus with 9 samples.

Results

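The cytosolic ribosomal protein genes were taken as the protein-coding rows of the deposited rat liver table whose symbols run from Rps or Rpl to a number, with an optional letter and copy number, together with Rpsa, Rplp0, Rplp1 and Rplp2. The rule found 90 of the 32883 rows, which carried 83 symbols, 35 of the rows for the small subunit and 55 for the large subunit. Rplp1, Rpl22, Rps7, Rps13 and Rps26 had no row under the rule and are not analysed here. Liver RNA of 9 male Sprague-Dawley rats was sequenced in a study of PZH (Pien-Tze-Huang), a traditional Chinese medicine, in hepatocellular carcinoma brought on by the carcinogen diethylnitrosamine (DEN). Rats N1, N3 and N12 formed the normal control group, kept on a normal diet without DEN. Rats M13, M17 and M24 formed the DEN model group, which received 0.01% DEN into the abdomen once a week for 16 weeks. Rats G27, G28 and G42 formed the PZH administration group, which received the same DEN course and also PZH. The treatment label of the M rats reads PZH as well, so groups followed the letter in the rat's title. The age of the rats, the PZH dose and the week at which each sequenced rat was killed are not given in the labels, so a difference in time of collection cannot be told apart from the groups.

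A ribosome is built from ribosomal RNA and one copy of most ribosomal proteins in each of its subunits, so the genes for these proteins are usually expressed together and at high levels in every cell. Their mRNAs typically begin with a C followed by a run of pyrimidines, the 5′ terminal oligopyrimidine (TOP) tract, through which growth signals acting on mTOR set how strongly they are translated. In liver, which exports large amounts of plasma protein, ribosome production rises with growth and regeneration. Several of the proteins also have roles outside the ribosome, such as the binding of Mdm2 by Rpl5 and Rpl11, and mutations of others cause Diamond-Blackfan anaemia.

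The start regions of a few members show the tract that gives the family its shared control. Promoter entries of RefSeq for the assembly GRCr8 were matched by symbol to 63 of the 83 symbols, in 64 entries. Each line below holds 20 bases before and 20 bases from the annotated start, 5′ to 3′ on the gene's strand, with the longest C-led pyrimidine run that begins within 10 bases of the start in capitals. Rps24, Rps23, Rpl34, Rpl29, Rps10 and Rpl3 are shown because their levels passed a test in the comparisons, the last of them without a tract, and Rps27, Rps27l and Rpl22l1 because they set a usual member beside second copies of the family. The RefSeq gene of a symbol need not be the locus counted in the deposited table.
Rps24, chr16:96497-96536, plus strand: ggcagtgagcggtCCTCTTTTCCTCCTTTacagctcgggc
Rps23, chr2:23814497-23814536, plus strand: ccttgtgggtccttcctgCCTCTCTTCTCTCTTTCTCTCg
Rpl34, chr2:221962264-221962303, minus strand: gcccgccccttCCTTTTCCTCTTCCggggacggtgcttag
Rpl29, chr8:115947623-115947662, plus strand: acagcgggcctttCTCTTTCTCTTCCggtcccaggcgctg
Rps10, chr20:5700725-5700764, minus strand: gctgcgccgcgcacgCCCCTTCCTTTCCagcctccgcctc
Rpl3, chr7:113507971-113508010, minus strand: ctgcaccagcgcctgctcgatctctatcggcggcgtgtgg
Rps27, chr2:177964587-177964626, minus strand: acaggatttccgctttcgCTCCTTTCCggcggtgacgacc
Rps27l, chr8:76443638-76443677, plus strand: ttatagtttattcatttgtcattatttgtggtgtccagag
Rpl22l1, chr2:113683176-113683215, plus strand: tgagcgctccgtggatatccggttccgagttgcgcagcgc

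A C within 10 bases of the annotated start with at least 4 further pyrimidines was present in 45 of the 64 entries (70.3%), against 28.9% of all 33469 promoter entries. With at least 7 further pyrimidines the share was 50% against 7.34%. A C exactly at the annotated start with at least 4 further pyrimidines was found in 20 entries (31.3%), against 2.63% of all entries. Of the other motifs searched over the whole windows, from 250 bases before the start to 50 after it, CCGGAA on either strand, a core of the sites bound by ETS factors, was in 46.9% of member entries and 14.95% of all. CTTTCC on the sense strand was in 37.5% and 13.4%, and it can overlap a tract. TATAAA was in 14.1% and 14.2%, and the E box CACGTG, the site of Myc, in 7.81% and 6.42%. Rpl3, Rps27l and Rpl22l1 had no such tract in the stretch shown, whereas Rps27 had one of 9 bases.

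Total counts per rat lay between 14922973 and 16641954 in 8 rats and reached 27161496 in G27. For levels, counts were divided by library totals that had been multiplied by the TMM factors of edgeR, which balance libraries on the bulk of the genes rather than on the sum, and the results are given as CPM. These factors ran from 0.731 to 0.799 in normal control, 1.21 to 1.58 in DEN model and 0.863 to 0.941 in PZH administration rats. The factors therefore decide much of what is said about an abundant family, and results are also given with the library total as the scale. Rat G27 stood apart from the other PZH administration rats in these genes, as set out further on, and the main results that rest on it are given without it too.

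In the DEN model group the ribosomal protein genes took a larger share of the library. They held 0.780%, 0.620% and 0.670% of all counts in N1, N3 and N12, 1.62%, 1.22% and 1.89% in M13, M17 and M24, and 0.937%, 0.877% and 0.937% in G27, G28 and G42. Every DEN model rat lay above every other rat, and every PZH administration rat lay above every normal control rat. Group means were 0.690% ± 0.0815, 1.58% ± 0.337 and 0.917% ± 0.0344 (SD, n = 3), so the share in the DEN model group was 2.28 times that in the normal control group. After TMM scaling the summed level was 8896 ± 794, 10984 ± 983 and 10085 ± 715 CPM (SD, n = 3), so the DEN model level was 1.23 times the normal control level. Each DEN model rat was still above each normal control rat on that scale, by a small margin between M17 at 10061 and N1 at 9810 CPM, while the PZH administration rats overlapped both groups.

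**Figure D1:**
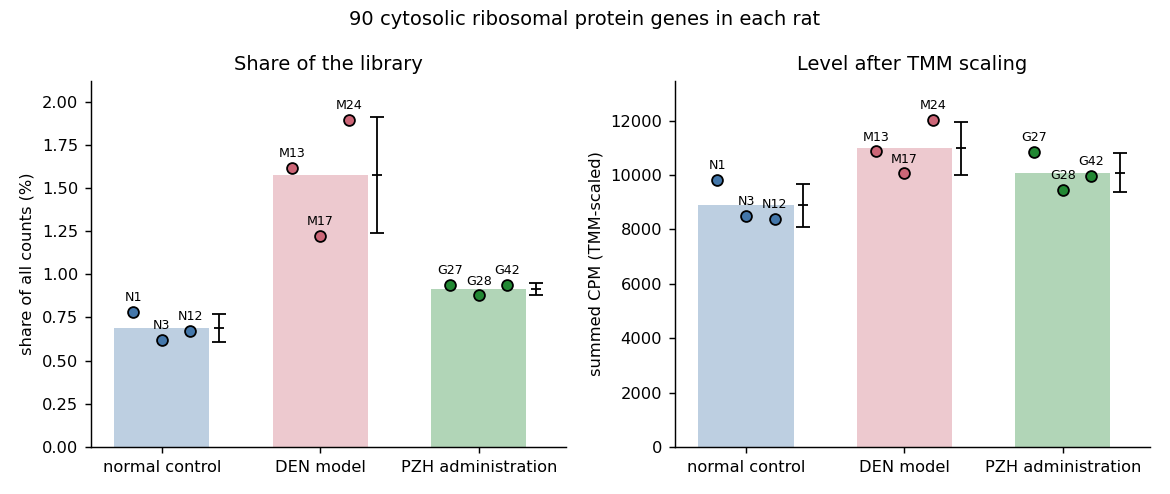
Share of all counts in percent (left) and summed TMM-scaled CPM (right) of the 90 cytosolic ribosomal protein genes, with a point for each rat, a bar at the mean of 3 rats and the SD beside it. The DEN model rats stand at 1.22% to 1.89% of counts against 0.620% to 0.780% in normal control rats, and the gap narrows to 10984 against 8896 CPM after TMM scaling.

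The members spanned a wide range of levels. Mean CPM over the 9 rats ran from 0.0361 for Rpl3l to 629 for Rplp0, with a median of 72.5, and 37 members had a mean of at least 100 CPM. The 10 highest members held 41.7% of the summed level. Per length, on the deposited FPKM scale, the 3 highest over all rats were Rpl10 (a protein of the subunit interface), Rplp0 (the base of the stalk that elongation factors dock on) and a Rps27a row on chromosome 5 (a ubiquitin fusion). Rpl10 stood at 533 ± 53.7 FPKM in normal control rats, 966 ± 246 in DEN model rats and 762 ± 263 after PZH (SD, n = 3). Rplp0 stood at 346 ± 32.6, 968 ± 227 and 549.8 ± 13.8 FPKM, and Rps27a at 341 ± 3.75, 856 ± 195 and 452 ± 29.5, in the same order of groups. In normal control rats Rpl10 lay above the other two, which did not differ beyond their spread, and in DEN model rats none of the 3 did. At the other end, Rplp2, which pairs with Rplp1 in the stalk, had 2 to 12 counts in any rat, and Rps14 and Rpl8, core proteins of the 2 subunits, had no more than 37 and 21. Rpl3l, Rpl39l, Rpl37, Rpl30l1 and Rplp2 had too few counts to be tested in any comparison, which left 85 members.

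Near-identical copies make single rows uncertain. The file lists Rpl21 under 4 identifiers and Rpl32, Rpl7a, Rps27a and Rps4x under 2 each, and 19 members have models as long as their locus, that is, with a single exon, as retrocopies do. These single-exon rows held 14.6% of the summed level. The single-exon Rps4x row on chromosome 4 stood at 269 ± 26.0 CPM in normal control rats, whereas the Rps4x row on the X chromosome, which has several exons, stood at 6.59 ± 0.695 (SD, n = 3). In the same way the Rps27a row on chromosome 5 stood at 240.0 ± 11.6 CPM and that on chromosome 14 at 5.46 ± 0.615. How reads were divided between such copies is not given in the sources used here, so a value belongs to the row and may hold reads of its copies.

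To ask which members differed in DEN model rats from normal control rats, the 6 rats were fitted with edgeR's quasi-likelihood test over 14255 genes, and a gene was called at a Benjamini-Hochberg adjusted p under 0.05. Of the 85 tested members, 12 were called higher in the DEN model group and 1 lower, which is 15.3% of them, where 45.8% of all tested genes were called, 25.3% higher and 20.5% lower. The median log2 fold change of the members was 0.32, that of all tested genes 0.03, and 68 members were above 0. Groups did not overlap in 26 members that were higher and 1 that was lower, against 31.4% and 27.4% of all tested genes. No member passed the study's rule, an absolute log2 fold change above 2 with P under 0.001, which 12.3% of all tested genes passed. On the library totals 73 members were called higher and 0 lower in edgeR's test, where 57% of all genes were called higher and 6.72% lower (63.7% in all), and the medians were 1.18 and 0.89. The members' median thus stood 0.29 above that of all genes on either scale, while the number of calls turned on the scale. A change of scale shifts all genes by nearly the same amount, so the equal distance is no separate support.

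The median log2 fold change was 0.42 in the small subunit, with 6 of 35 members called higher, and 0.19 in the large subunit, with 6 higher and 1 lower of 50. Among the small subunit genes, Rps24 (chromosome 16, 757403 to 762075 in the coordinates of the deposited file, whose build is not given in the sources used here), one of the anaemia genes, stood at 52.0, 40.2 and 43.5 CPM in N1, N3 and N12, at 74.6, 65.0 and 72.1 in M13, M17 and M24, and at 63.0, 46.6 and 37.6 in G27, G28 and G42. The DEN model rats lay above all normal control rats, and the PZH administration rats all lay below the DEN model rats and spread around the normal control range. Rps24 was 1.58-fold higher in the DEN model group (log2 0.66, SE 0.16, adjusted p = 0.0103 in edgeR's quasi-likelihood test).

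Rps23, which sits at the decoding centre, had 167, 160.0 and 146 CPM in the normal control, 216, 217 and 256 in the DEN model and 146, 209 and 206 in the PZH administration rats, and was 1.47-fold higher in the DEN model group (adjusted p = 0.0392, edgeR). Rat G27 lay just below the normal control range and the other PZH administration rats above it. Rps10 rose 1.38-fold (adjusted p = 0.0474) and Rps6, the substrate of the S6 kinases, 1.57-fold (adjusted p = 0.0424) in edgeR's test, although the Rps6 row had only 6.78 ± 1.24 and 10.5 ± 1.21 CPM (SD, n = 3). The Rps4x row on chromosome 4 rose 1.52-fold (adjusted p = 0.0451, edgeR), while the weak row on the X chromosome had a fold change of 1.48 and an adjusted p of 0.0580 in edgeR's test.

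Among the large subunit genes, Rpl34 (chromosome 2, 235850334 to 235852708) had the lowest adjusted p of those called higher. Its levels were 70.7, 66.4 and 65.0 CPM in N1, N3 and N12, 99.0, 96.7 and 145 in M13, M17 and M24, and 87.6, 110.3 and 119 in G27, G28 and G42. All DEN-treated rats, with and without PZH, lay above all normal control rats. Rpl34 was 1.71-fold higher in the DEN model group (log2 0.77, SE 0.20, adjusted p = 0.0147, edgeR). Rpl3, which lies close to the peptidyl transferase centre, had 350.1, 343 and 276 CPM in the normal control, 535, 469 and 619.7 in the DEN model and 348, 439 and 573 in the PZH administration rats. It was 1.70-fold higher in the DEN model group (adjusted p = 0.0269, edgeR), and the PZH administration rats overlapped both other groups.

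Rpl29 had 182, 143 and 163 CPM in the normal control, 239.9, 241 and 256 in the DEN model and 189.5, 215 and 207 in the PZH administration rats. The 3 groups did not overlap at all, with the PZH administration rats in between, an order that was seen in 3 members, Rpl29, the Rps27a row on chromosome 5 and the Rps4x row on chromosome 4, and in 8.36% of 14479 genes. Without G27 it was seen in 6 members and 10.8% of genes. Rpl29 was 1.53-fold higher in the DEN model group (adjusted p = 0.0285, edgeR). Rpl23a, which lines the exit of the peptide tunnel, was 1.66-fold higher (adjusted p = 0.0302), and both Rpl32 rows were called, at 1.59-fold and 1.46-fold (adjusted p = 0.0446 and 0.0469), all in edgeR's test. Rplp0 was separated between the groups too, at 488 ± 22.7 and 739 ± 98.5 CPM (SD, n = 3), but had an adjusted p of 0.0620 in edgeR's test. The 5S particle genes had small values, with a log2 difference of 0.16 for Rpl5 and -0.05 for Rpl11, and neither was called (adjusted p = 0.552 and 0.919, edgeR).

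**Figure D2:**
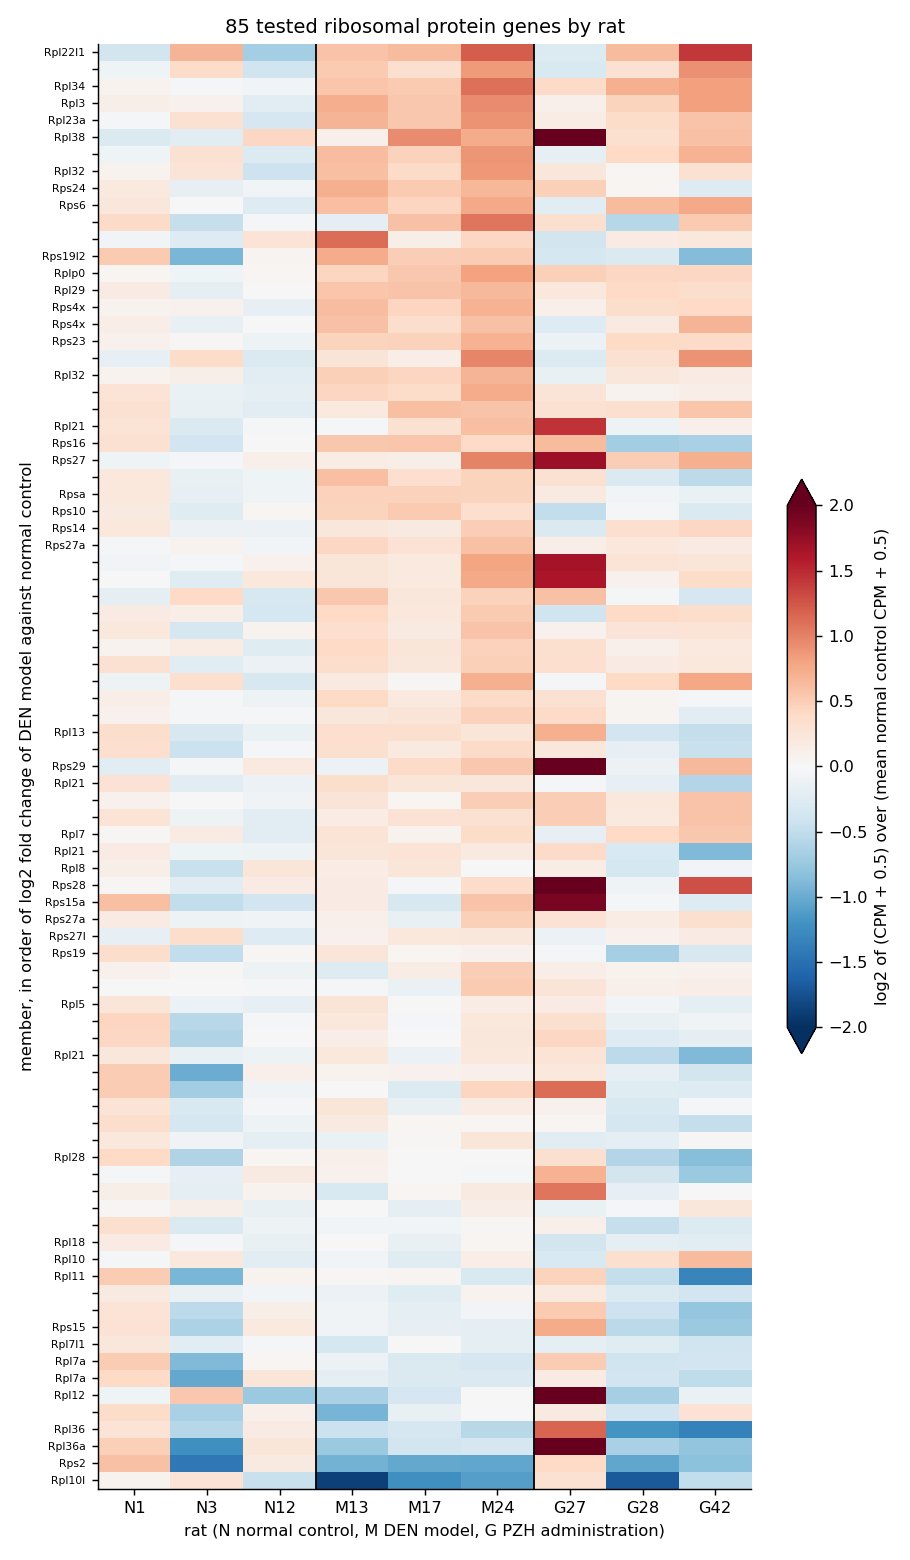
Log2 of CPM over the mean normal control CPM, with 0.5 added to both, for the 85 tested members (rows, with the members named in the text labelled, from the highest to the lowest fitted fold change of DEN model against normal control) in each of the 9 rats (columns). Reds, above the normal control mean, fill most of the M13, M17 and M24 columns in the upper part of the map, and G27 has deep red cells, such as Rpl38 and Rps29, in rows where the other rats are pale.

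At the lower end Rpl10l, a single-exon copy of Rpl10 known for its role in the male germ line, was the 1 member called lower. It had 10.3, 12.0 and 7.10 CPM in N1, N3 and N12, 2.34, 3.91 and 4.29 in M13, M17 and M24, and 12.2, 2.71 and 6.84 in G27, G28 and G42. The DEN model rats lay below all normal control rats, and G27 above them all. Its log2 fold change was -1.46 (SE 0.32, adjusted p = 0.00672, edgeR), and -0.59 with an adjusted p of 0.167 on the library totals. Rps2, of the mRNA entry region, had 159, 38.9 and 120 CPM in N1, N3 and N12 against 54.5, 51.8 and 51.2 in the DEN model rats. The tight DEN model group lay within the wide normal control range, and the log2 difference of -0.99 was not called (adjusted p = 0.0817, edgeR). DESeq2 called it (adjusted p = 0.0422), while the log2 difference was -0.16 on the library totals and 0.08 with limma on log2(FPKM + 1), without a call. Rpl36a, Rpl36, Rpl7a, Rpl7l1 and Rps15 made up the rest of the low end, with log2 differences between -0.47 and -0.12 for rows of at least 10 CPM and no call.

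The 13 calls were not spread evenly over the rats. In edgeR's test the count was 2 without N12 (37.8% of all genes called), 2 without M24 (34.5%), 3 without M13 (32.7%) and 5 without N1 (35.4%), in each case with 1 lower and the rest higher. It was 14 without N3 (45.7% of all genes), of which 4 were lower, and 15 without M17 (44.8%), of which 1 was lower. Other tools called 20 members with DESeq2 (48% of all genes), 21 with upper-quartile factors in edgeR (45.6%), 7 with no filter on low counts (31.8%) and 76 with limma on log2(FPKM + 1) (64.1%). All 13 were called in the same direction with DESeq2 and with upper-quartile factors, and on the library totals Rpl10l was lost and the other 12 were called.

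For PZH administration against DEN model rats 14272 genes were tested, and the DEN model rats are those of the first comparison. Rps10 and Rps19l2 were called lower after PZH and 0 members higher, where 19.1% of all tested genes were called, 10.3% lower and 8.72% higher. DESeq2 called these 2 lower and Rps28 higher (26.5% of all genes called), and 4 members had an unadjusted p under 0.05 in edgeR's test. Rps28 had 24.7 CPM in G27 against 2.78 and 8.05 in G28 and G42, and its log2 difference in edgeR went from 1.83 to 0.67 without G27 (adjusted p = 0.326). The members' median log2 fold change was -0.14, against 0.01 for all tested genes, and the groups did not overlap in 15 members that were lower and 0 that were higher, where the shares of all genes were 22.5% and 18.4%. No member passed the study's rule, which 2.43% of all genes passed. On the library totals 45 members were called lower and 0 higher, where 39.9% of all genes were called lower and 3.9% higher (43.8% in all). Limma on log2(FPKM + 1) called 47 lower (42% of all genes called), while 2 were called lower with upper-quartile factors (19.8%) and with no filter (12.6%).

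Rps19l2 (chromosome 9, 16802319 to 16807966), a second copy of Rps19, had 58.3, 48.7 and 49.5 CPM in M13, M17 and M24 and 26.8, 28.2 and 18.7 in G27, G28 and G42, beside 49.7, 18.04 and 35.9 in N1, N3 and N12. The PZH administration rats all lay below the DEN model rats, and the normal control rats overlapped both. Its log2 fold change between PZH administration and DEN model was -1.06 (SE 0.20, adjusted p = 0.0161, edgeR). The row named Rps19 was far weaker. It had 1.73 ± 0.63 CPM in normal control, 1.93 ± 0.18 in DEN model and 1.28 ± 0.38 in PZH administration rats (SD, n = 3). Between PZH administration and DEN model it was not called (log2 -0.54, adjusted p = 0.348, edgeR). The Rps19l2 row may thus hold reads of Rps19. Rps10 (chromosome 20, 7215774 to 7219548), an anaemia gene that was called in both comparisons, had 44.7, 33.1 and 40.4 CPM in the normal control, 53.7, 57.0 and 49.9 in the DEN model and 27.99, 38.4 and 32.3 in the PZH administration rats. The DEN model rats lay above all other rats. Against the DEN model rats its log2 fold change was -0.68 (SE 0.17, adjusted p = 0.0316, edgeR), and without G27 it was -0.58 with an adjusted p of 0.0552. The single-exon row Rps10l1 was more abundant, at 64.6 ± 16.9 CPM in normal control rats against 39.4 ± 5.86 for Rps10 (SD, n = 3). Rps10l1 was called neither for DEN model against normal control (log2 0.33, adjusted p = 0.227, edgeR) nor for PZH administration against DEN model (log2 -0.38, adjusted p = 0.238, edgeR).

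**Figure D3:**
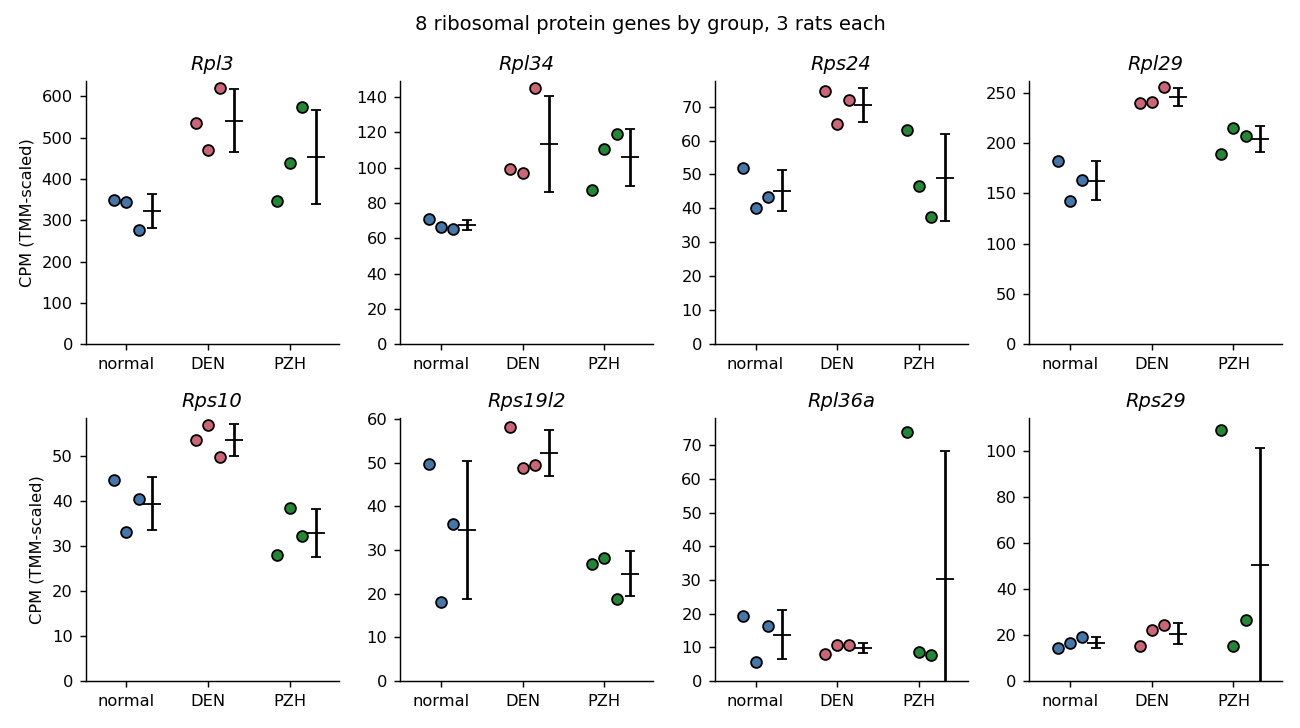
TMM-scaled CPM of 8 members in each rat (points, coloured by group, 3 rats each), with the mean and SD to the right of each group. Rpl3, Rpl34, Rps24 and Rpl29 lie higher in the DEN model than in the normal control rats, Rps10 and Rps19l2 lie lower in the PZH administration than in the DEN model rats, and in Rpl36a and Rps29 the PZH administration mean rests on G27, with the lower SD bar cut at 0.

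Of the rats left out in turn, G27 changed the count most in this comparison. Without G27 8 members were called lower and 0 higher in edgeR's test (14.9% of all genes called), among them Rpl13, a Rpl21 row, Rpl28, Rpl36, Rps16, Rps19l2 and Rps24. Rps16 then had a log2 fold change of -1.15 (adjusted p = 0.0265) and Rps24 one of -0.72 (adjusted p = 0.0400), each from edgeR. In Rps16 the values were 224, 226 and 201 CPM in M13, M17 and M24 and 239, 94.7 and 98.5 in G27, G28 and G42, so that G27 alone lay with the DEN model rats. The count was 0 without M13 (1.87% of all genes called, 2 members at an unadjusted p under 0.05 in edgeR's test), 1 without M17 (22.6%), M24 (5%) or G42 (8.22%), and 2, of which 1 was higher, without G28 (7.94%).

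PZH administration was last set against normal control, with rats that the other comparisons also use, and edgeR's test called 0 of the 85 members over 13348 tested genes, where 5.21% of all genes were called, 4.07% higher and 1.15% lower, and 9 members had an unadjusted p under 0.05. DESeq2 called 5 higher, Rpl34, Rpl38, Rps27, Rps28 and Rps29 (9.89% of all genes called). In edgeR's fit the log2 differences of Rpl38, Rps28 and Rps29 went from 2.09, 2.0 and 1.60 to 0.49, 0.85 and 0.32 without G27 (adjusted p = 0.367, 0.276 and 0.505), and that of Rps27 from 1.09 to 0.61 (adjusted p = 0.0744). EdgeR on the library totals called 2 higher, Rpl34 and Rps27 (6.81% of all genes called, 6.13% higher and 0.682% lower), and 0 were called with upper-quartile factors (5.42%), no filter (4.06%) or limma (4.05%). The median log2 fold change was 0.13 for the members and -0.02 for all tested genes, and the groups did not overlap in 10 members that were higher and 1, Rpl18, that was lower, where the shares of all genes were 13.6% and 10.6%. Again no member passed the study's rule, against 2.32% of all genes. Rpl34 had a log2 difference of 0.65 here (adjusted p = 0.0864, edgeR). Without G27 Rpl34 was called higher (log2 0.77, adjusted p = 0.0291) and Rpl36 lower (log2 -1.31, adjusted p = 0.0241) in edgeR's test (9.73% of all genes called), and without G28 1 member was called higher (1.56%). With N1, N3, N12 or G42 left out the count stayed at 0, where 1.51%, 3.14%, 2.44% and 2.66% of all genes were called. By group means, the PZH administration level lay between those of normal control and DEN model, with DEN model highest, in 35 of the 85 members (34.7% of 14479 genes). It lay below both, with DEN model highest, in 17 (9.52%) and above both in 22 (15.5%). Without G27 these counts were 27 (30.5%), 26 (11.1%) and 16 (19.7%).

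Rat G27 accounts for the members with the widest spread. In G27, 22 of the 85 members were more than 2-fold above the mean of G28 and G42 and 1, Rpl22l1, more than 2-fold below it, where 4.61% and 2.85% of all genes were. In the other 8 rats, set against the rest of their own group, at most 1 member was more than 2-fold above. More than 2-fold below were 7 in N3, 9 in G28 and 7 in G42, where 4.52%, 1.51% and 3.91% of all genes were. The means used for G28 and G42 include G27, so these low members in part restate the high values of G27. Rpl36a had 74.1 CPM in G27 and 8.63 and 7.76 in G28 and G42, against 8.07 to 10.8 in the DEN model rats. Rps29, a zinc-binding protein of the small subunit head, had 109 CPM against 15.3 and 26.4, Rpl38 had 58.5 against 7.59 and 9.19, and Rpl12, part of the stalk base, had 46.6 against 4.87 and 7.19. In G28 and G42 Rpl36a, Rpl38 and Rpl12 lay within or near the range of the DEN model rats, and G27 lay far above every other rat in all 4 genes.

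The members high in G27 came from every class of gene model length. These lengths were worked out from the deposited counts and FPKM and need not be those of the mRNAs. The Rpl13a model, for example, has 4446 bases on a locus of 3078. The part of mRNA length itself was therefore not tested. Of the 11 members with models of up to 400 bases 6 were more than 2-fold above, as were 8 of 35 longer than 400 and up to 700, 1 of 17 up to 1000, 5 of 15 up to 2000 and 2 of 7 above 2000. The shares among other genes in the same length classes were 19.3%, 19.9%, 12.0%, 5.10% and 2.11%. Over the 85 members the G27 ratio and model length had a Spearman's rho of -0.02, and over all 14479 genes one of -0.18. The G27 ratio followed the ratio of N1 and N12 over N3 with a rho of 0.54 over the members and 0.52 over all genes. Of the 22 members high in G27, 20 were higher in N1 and N12 than in N3, among them Rpl36a with 19.4 and 16.3 against 5.62 CPM. Most of the 85 members went this way, with a median log2 ratio of -0.21 for N3 over N1 and N12. These correlations are across genes of the same few libraries, and G27 was also the library with the largest total. The part of depth, RNA quality or library preparation in this pattern was not tested.

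**Figure D4:**
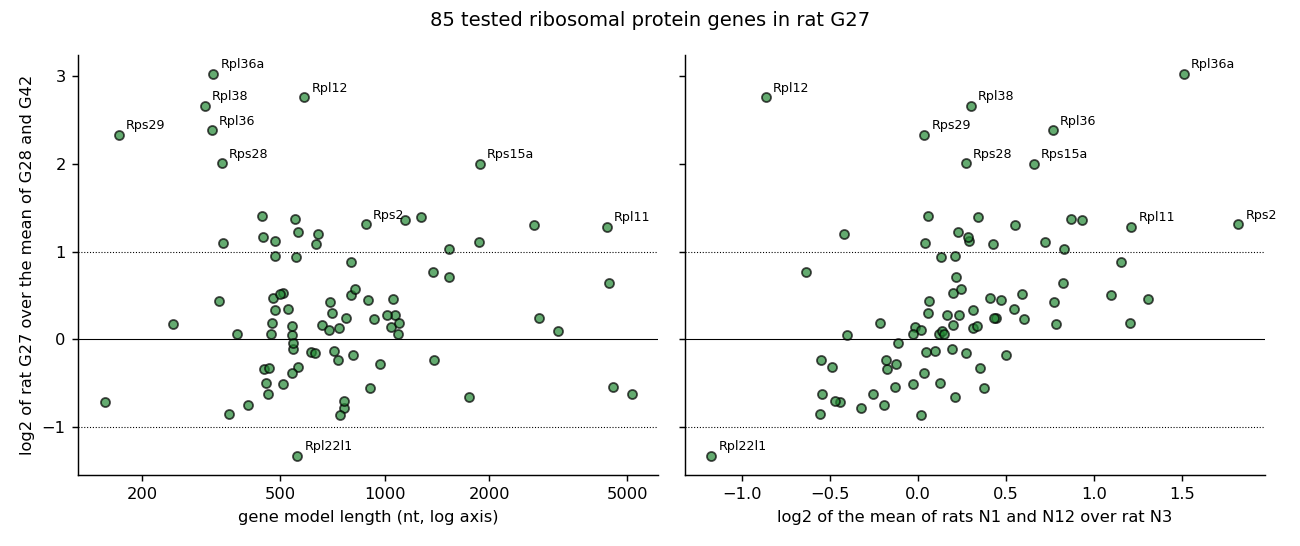
Log2 of G27 over the mean of G28 and G42 for the 85 tested members, against gene model length in bases on a log axis (left) and against the log2 ratio of N1 and N12 over N3 (right), with dotted lines at 2-fold. Rpl36a, Rpl12, Rpl38, Rps29, Rpl36, Rps28 and Rps15a stand at the top, and Rpl22l1 is the only member below the lower line.

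For 5 second copies the ratio to the usual gene within each library was compared, with 1 added to each count. Such a ratio does not depend on library scaling where both genes are well counted. Where the copy had few or no counts, as with Rpl3l and Rpl39l, the ratio was largely set by the count of the usual gene and the added 1. In all 15 exact two-sided permutation tests the adjusted p was at least 0.375, and 0.1 is the smallest unadjusted p that 3 rats against 3 can give. The log2 ratio of Rpl10l to Rpl10 was -5.76 ± 0.20 in normal control, -7.21 ± 0.48 in DEN model and -6.63 ± 1.40 in PZH administration rats (SD, n = 3). It was lower in the DEN model than in the normal control group by 1.45 without overlap of the groups, which gives an exact permutation p of 0.1. Rps27l, a copy of Rps27 known as a target of p53, stood at 0.62 ± 0.37, 0.40 ± 0.46 and -0.29 ± 0.79 relative to Rps27, and in PZH administration rats it lay below all normal control rats (exact permutation p = 0.1). G27 had the lowest of these ratios, at -1.20, with Rps27 at 155 CPM there. Rpl7l1 relative to Rpl7 overlapped between all groups. Rpl3l and Rpl39l, copies of muscle and germ line, had no more than 4 and 55 counts in any rat, the highest of both in G27, and the other rats had at most 1 count of Rpl3l and 10 of Rpl39l. Rpl22l1 had 19.5, 41.0 and 15.7 CPM in normal control and 38.0, 39.5 and 59.5 in DEN model rats, and its log2 difference of 0.86, the highest fitted of all tested members, was not called (adjusted p = 0.0823, edgeR).

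Members with and without an annotated tract at the start had similar median fold changes. For DEN model against normal control the 48 tested members with a tract of at least 4 further pyrimidines within 10 bases had a median log2 fold change of 0.30, with 7 called higher, and the 17 without one had 0.20, with 1 called higher, where 25.3% of all tested genes were. Between PZH administration and DEN model the medians were -0.13 and -0.14.

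Other genes of the protein synthesis machinery did not all follow the members. Of the ribosomal proteins named outside the rule, Rack1, a scaffold on the small subunit head, rose in the DEN model group (log2 0.72, adjusted p = 0.0348, edgeR) and Rpl36al, a second copy of Rpl36a, fell (log2 -0.88, adjusted p = 0.00637, edgeR), while Fau, which is made as a fusion with a ubiquitin-like protein, had a log2 difference of -0.53 with no call. On the library totals Rpl36al had -0.05 and was not called. The elongation factors had a median of -0.12, with 2 of 8 called higher, Eef1g and Eif5a2, where 25.3% of all tested genes were. The most abundant of them, Eef1a1 and Eef2, had log2 differences of -0.30 and -0.49 and no call (adjusted p = 0.415 and 0.198, edgeR). The initiation factors had a median of -0.10, with 1 of 33 called higher, Eif1ax, and 4 lower, against 25.3% and 20.5% of all tested genes. On the library totals 21 initiation factors were called higher with a median of 0.77, where 57% of all genes were called higher.

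Ribosome assembly factors had a median of -0.06, with 1 of 53 called higher, Xpo1, the exporter of pre-ribosomes. Called lower were 9, led by Rrs1, Nop10 and Tsr1, where 25.3% of all tested genes were called higher and 20.5% lower. On the library totals 34 assembly factors were called higher with a median of 0.82, where 57% of all genes were called higher. Other genes whose mRNAs carry the TOP tract had a median of 0.02, with 4 of 18 called higher, near the share of all genes. These were Nap1l1, Hnrnpa1, Rack1 and Eef1g, of which Rack1 and Eef1g are also counted above. The 18 members known as Diamond-Blackfan anaemia genes had a median of 0.21, with Rps24 and Rps10 called higher, where 25.3% of all tested genes were. The nucleolar proteins Npm1, Ncl and Fbl had log2 differences of 0.48, -0.06 and -0.29, none of them called. Of 14 RNA polymerase I genes, Taf1b was called higher and Polr1b lower. The 16 genes listed for the mTOR and Myc axis had a median of -0.28, with values from -1.21 to 3.25. Of these, 3 were called higher and 5 lower, against 25.3% and 20.5% of all tested genes. On this axis Myc rose in the DEN model group (log2 0.88, adjusted p = 0.0162, edgeR). Larp1, which binds TOP mRNAs, fell from 146 ± 23.6 to 62.3 ± 8.07 CPM (SD, n = 3, log2 -1.21, adjusted p = 0.00163, edgeR). Larp1 was higher again after PZH (log2 0.87 against the DEN model group, adjusted p = 0.0249, edgeR), a call that was lost on the library totals (log2 0.21, adjusted p = 0.404). Mtor, Rps6kb1 and Eif4ebp1 were not called, with log2 differences of -0.24, -0.45 and -0.53. These lower values depend on the scale, since on the library totals Larp1 had -0.36 and was not called and no gene of the elongation, initiation, assembly, polymerase or mTOR lists was called lower.

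The cytosolic and the mitochondrial ribosome moved apart. Of 73 tested mitochondrial ribosomal protein genes 34 were called lower in the DEN model group and 0 higher. Of all tested genes 20.5% were called lower and 25.3% higher. The median log2 fold change of the mitochondrial ribosomal genes was -0.58, and Mrpl34 had the lowest value (log2 -1.62, adjusted p = 0.00145, edgeR). Genes of the respiratory chain had a median of -0.90, with 61 of 76 called lower and 2 higher. On the library totals these medians were 0.27 and -0.06, with 10 mitochondrial ribosomal genes called higher and 1 lower. There 57% of all genes were called higher and 6.72% lower. The direction of the mitochondrial ribosomal genes on its own thus turned with the scale. The distance between the medians of cytosolic and mitochondrial ribosomal genes was 0.90 with TMM factors and 0.91 on the library totals. A change of scale shifts all genes by nearly the same amount, so the likeness of these distances is no separate support. Between PZH administration and DEN model the distance was -0.51 and -0.53. With TMM factors 5 of the 73 mitochondrial ribosomal genes were called higher and 0 lower, where 8.72% of all genes were called higher and 10.3% lower. On the library totals 0 were called higher and 5 lower, where 3.9% of all genes were called higher and 39.9% lower. These are descriptions of lists that share rats between comparisons.

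**Figure D5:**
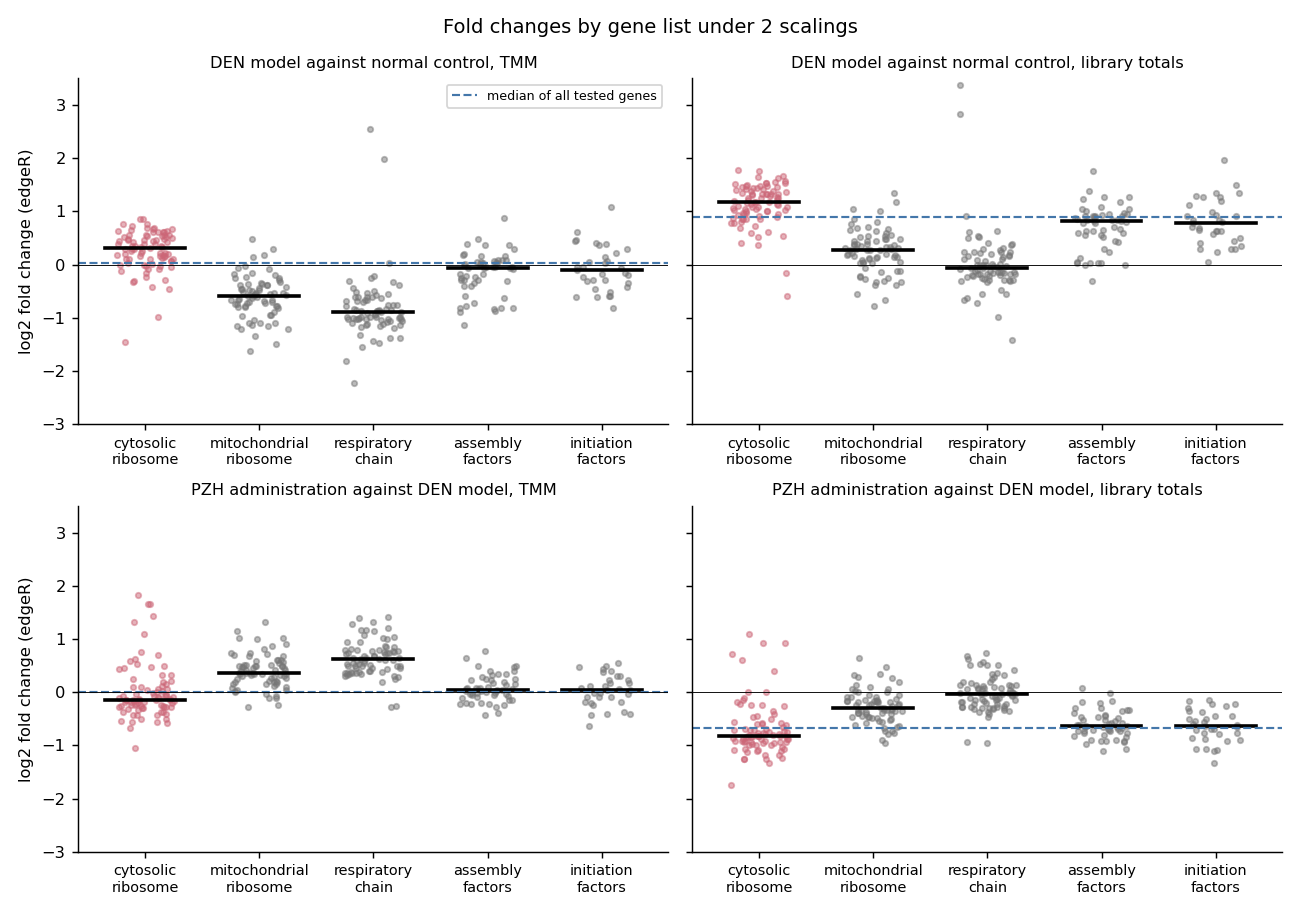
Log2 fold changes (edgeR) of the tested genes of 5 lists, for DEN model against normal control (top) and PZH administration against DEN model (bottom), with TMM factors (left) and library totals (right). Black bars are list medians and the dashed line is the median of all tested genes, and the cytosolic ribosome lies above the mitochondrial ribosome in the top panels (0.32 against -0.58 with TMM factors) and below it in the bottom panels.

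Summed marker RNA of cholangiocytes, stellate cells, lymphocytes and proliferation was higher in every DEN model rat than in every normal control rat. Hepatocyte sums were lower in every DEN model rat, and macrophage, endothelial and erythroid sums overlapped between these 2 groups. In bulk liver, fewer cells of a type and less RNA per cell cannot be told apart. Summed hepatocyte markers (9 genes, including Alb) ran from 166439 to 179347 CPM in normal control, 33895 to 78985 in DEN model and 132548 to 176875 in PZH administration rats, with 4 of 9 called lower in the DEN model group. Alb had the highest mean of these in every group. The 7 cholangiocyte markers, all called higher in the DEN model group, summed to 13.4 to 21.1, 246 to 784 and 83.0 to 110 CPM in this order of groups, with Krt7 and Cldn4 at 0 in 2 normal control rats each. Stellate cell markers, 6 of 7 called higher, summed to 175 to 276, 906 to 2667 and 504 to 613 CPM. Proliferation genes, 7 of 7 called higher, summed to 37.6 to 45.4, 172 to 246 and 64.0 to 125 CPM.

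Lymphocyte markers, with 3 of 6 tested called higher, stayed low, at 4.45 to 5.49, 8.52 to 33.4 and 2.21 to 7.55 CPM. Macrophage markers summed to 459 to 863, 492 to 609 and 258 to 554 CPM in the same order of groups. Endothelial markers summed to 335 to 411, 219 to 415 and 295 to 414 CPM. Erythroid markers summed to 299 to 1092, 222 to 2067 and 167 to 241 CPM. For DEN model against normal control, edgeR's test called 1 of 7 macrophage markers up and 2 down. Of 5 endothelial markers it called 2 up and 2 down, and of 5 erythroid markers 1 up and 0 down. M24, which had the highest ribosomal protein share, had the lowest hepatocyte and the highest cholangiocyte, stellate, lymphocyte and proliferation sums of the DEN model rats, and M17, with the lowest share, had the opposite order in each of these. The other lists did not follow this order, with the highest macrophage, endothelial and erythroid sums in M13, at 609, 415 and 2067 CPM. Hepatocyte transcripts are also part of the library total on which the share rests, and these are only 3 rats. The part of these cell types in the ribosomal protein levels was not tested.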

How the data were processed

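Liver mRNA of 9 rats, 3 per group, was analysed. The authors deposited raw read counts per gene and FPKM values. The submitters' processing notes name fastp, HISAT2 2.1.0, StringTie 1.3.3b and edgeR 3.30.3; the genome build and the tool that counted reads are not given in the sources used here. The deposited FPKM equal the count over model length and library total, so they carry no TMM factor. Fold changes and p-values of the authors' own comparisons in the file were not used. Counts were tested in edgeR 4.0.16 (R 4.3.3) with filterByExpr, TMM factors and the quasi-likelihood test, fitting only the 6 rats compared and adjusted by Benjamini-Hochberg over all tested genes, after a test on simulated data. DESeq2 1.42.0, limma 3.58.1 on log2(FPKM + 1), other scalings and filters, and each rat left out were alternatives. A floor of 3 counts was 0.125 to 0.252 CPM and covers counting error only. Replicates are separate rats by title. Members and lists were chosen with earlier results of these data known. Named members were the 6 highest and 6 lowest of at least 10 mean CPM per comparison, those past the study's rule, the stalk, 5S particle, second copies, other-named subunits, Rps6, Rpsa, Rps27a, Rps4x, Rpl3 and the 3 highest by FPKM; others, such as Rps24, Rps23, Rpl29 and Rps28, were named after their values were seen. A few genes of these lists are counted but not reported here by name.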

Additional observations from a re-analysis of the deposited data

How the results depend on the processing

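The scale set the number of members called. Between DEN model and normal control, 13 were called with TMM factors, 20 with DESeq2, 21 with upper-quartile factors, 73 on the library totals, 76 with limma on log2(FPKM + 1) and 7 with no filter on low counts, and 2 to 15 with 1 rat left out. Between PZH administration and DEN model the 2 calls became 45 on the library totals, 47 with limma and 0 to 8 with 1 rat left out. Between PZH administration and normal control the 0 calls became 5 with DESeq2, 2 on the library totals and 0 to 2 with 1 rat left out. The TMM factors shifted the median of all tested genes from 0.89 to 0.03 between DEN model and normal control. Log2 differences below 0 between DEN model and normal control turned above 0 and were called in 8 members on the library totals, among them Rpl7l1 (0.69 on the library totals, 0.68 with limma), Rps15 (0.73, 0.78) and Rpl10 (0.86, 0.83). Outside the 10 most abundant genes the mean share of counts was 0.875% in normal control, 1.87% in DEN model and 1.18% in PZH administration rats. The DEN model share was then 2.13 times that of normal control. With 1 rat left out, sign changes occurred in the log2 ratio of Rpl7l1 to Rpl7 (PZH administration against DEN model, -0.372 to 0.0906), Rpl10l to Rpl10 (the same groups, -0.18 to 1.21), Rps27l to Rps27 (DEN model against normal control, -0.389 to 0.0439) and Rpl39l to Rpl39 (-1.46 to 0.10, -0.91 to 2.498 and -1.39 to 2.02 in DEN model against normal control, PZH administration against DEN model and PZH administration against normal control), which rests on a few counts. The causes were not tested. No paired analysis was possible because the rats' numbers are not shared between groups. Rplp2 and Rpl3l had too few counts for a test. The order of the groups without G27 was added after the data were seen.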
